A study of Mus musculus with 6 samples.

Results

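The genes described here are salt signalling genes of the SGK, WNK and TSC22D families in bone-marrow-derived macrophages (BMDMs) kept in control medium or in excess sodium chloride (NaCl). A list of 9 genes was set by symbol: *Sgk1*, *Sgk3*, *Nedd4l*, *Wnk1*, *Oxsr1*, *Stk39*, *Tsc22d2*, *Tsc22d3* and *Tsc22d4*. Of these, 8 were found under their symbol among the 15903 genes tested, that is, those whose counts summed to 10 or more over all libraries. No row carried the symbol *Tsc22d4*, and that gene is treated on its own below. BMDMs are macrophages grown from bone marrow with the growth factor M-CSF. The marrow came from 3 Cx3cr1GFP mice on a C57BL/6J background, a line with GFP placed in the *Cx3cr1* locus, and the ages of the mice were not given in the sources used here. Each mouse gave 1 unstimulated control library and 1 library of cells held in 62 mM excess NaCl for 24 h, which makes 3 control and 3 NaCl libraries. All cells were grown with M-CSF, and the cells sequenced after NaCl were those that remained attached. Whether the effect of NaCl came from salt or from osmolarity cannot be told apart in these libraries, since no library was treated with another osmolyte.

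SGK kinases are activated downstream of PI3-kinase and mTORC2, and they phosphorylate the ubiquitin ligase NEDD4L, which then binds less well to the epithelial sodium channel and other membrane proteins. WNK kinases carry their catalytic lysine at an unusual place, are sensitive to chloride and to cell volume, and activate the kinases OXSR1 (OSR1) and STK39 (SPAK), which phosphorylate the sodium and potassium chloride cotransporters of the SLC12 family. TSC22 domain proteins partner WNK kinases and the NRBP pseudokinases, and TSC22D3 (GILZ) is a widely used glucocorticoid-induced gene. In several cell types *Sgk1* is known to be raised by hypertonic medium, by glucocorticoids and by mineralocorticoids.

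The libraries held between 4088065 and 20123570 counts, and the shallowest was NaCl replicate 3, in which 1235 of the genes tested had no count. Expression is given as CPM, the counts of a gene brought to a common library size, with library sizes scaled by the TMM method of edgeR. The treatment itself was visible in *Slc5a3*, the sodium-dependent myo-inositol transporter of the hypertonic response. This gene rose from 5.88 ± 1.57 to 100.0 ± 14.6 CPM (mean ± SD, n = 3) with a log2 fold change of 4.07 ± 0.22 (SE) and an adjusted p of 6.3e-05 in edgeR. All 8 macrophage markers passed the minimum count, and their summed level lay between 14740 and 16120 CPM in control and between 23230 and 30770 CPM in NaCl libraries. Most of this gap came from *Lyz2*, the one marker called without the block in edgeR. With the block edgeR called *Lyz2*, *Csf1r* and *Cx3cr1* higher and *Mertk* lower, and DESeq2 without the block called 4 of the 8 markers. Of 36 markers of neutrophils, dendritic cells, B cells, T cells, erythroid and stromal cells, 20 passed the minimum, and their summed level was 262 to 550 CPM in control and 281 to 396 CPM in NaCl libraries. None of the 5 T cell markers passed, whereas all 9 neutrophil markers did. Of these *Ngp* and *Mpo* were lower with NaCl in edgeR with the block (log2 fold changes of -0.56 and -0.73, adjusted p of 0.019 and 0.024), and their part in the results was not tested. In bulk RNA a lower share of cells of a type and less RNA per cell cannot be told apart.

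None of the 8 genes passed the threshold between NaCl and control. edgeR's quasi-likelihood test with Benjamini-Hochberg adjustment over all genes called 0 of 8 at an adjusted p of 0.05, against a background of 0.654% of all genes. With the mouse as a replicate block edgeR again called 0 of 8, although the share of all genes called was then 8.9%, and DESeq2 without the block called 0 of 8 against 2.52% of all genes. At an unadjusted p of 0.05 the counts were 0 of 8 without the block, against 12.6% of all genes, and 2 of 8 with it (*Sgk1* and *Stk39*), against 22.1% of all genes. The control and NaCl values overlapped in all 8 genes, whereas 19.0% of all genes had groups that did not overlap. The same direction in all 3 mice was seen for 3 of 8 genes (*Sgk1* and *Nedd4l* higher, *Stk39* lower), against 43.5% of all genes. The median log2 fold change of the 8 genes was -0.04, and that of all genes tested was -0.01.

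**Figure D1:**
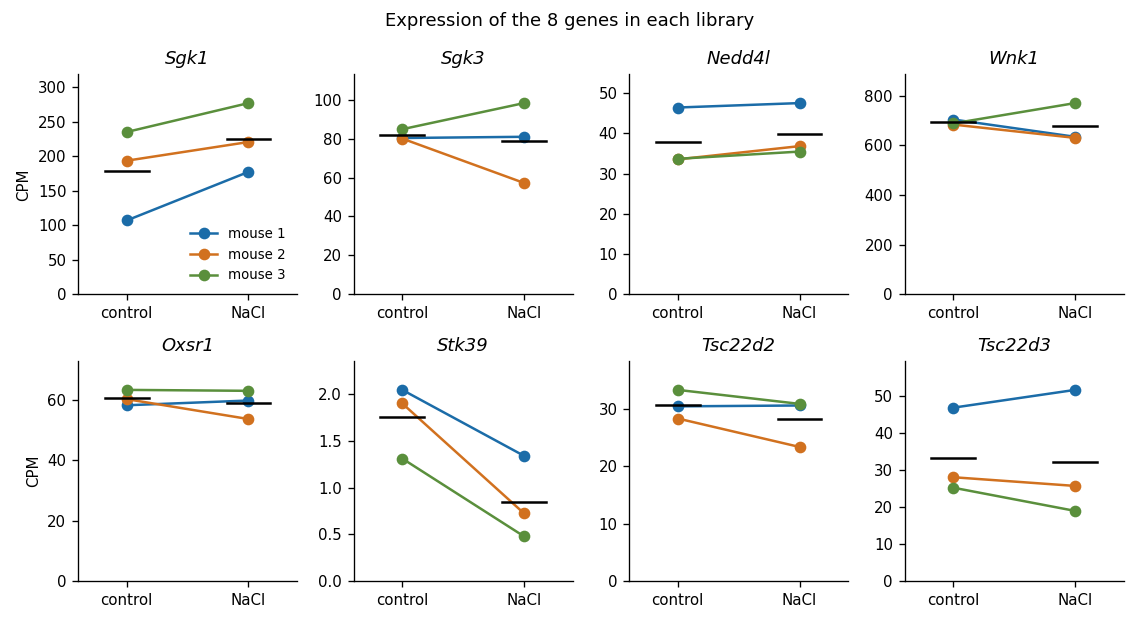
Expression in CPM (vertical axes, each starting at 0) of the 8 genes in control and NaCl libraries, with lines joining the libraries of 1 mouse and black bars at the group means. *Sgk1*, *Nedd4l* and *Stk39* moved the same way in all mice. The mice kept the same order in both groups in *Sgk1*, *Sgk3*, *Stk39*, *Tsc22d2* and *Tsc22d3*, which was not counted over all genes.

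*Sgk1* (ENSMUSG00000019970, chromosome 10), the serum- and glucocorticoid-regulated kinase that gives the family its name, had the highest mean level per exon length among these genes, overlapping with *Wnk1*. Its promoter is shown because glucocorticoid and hypertonic signals are both known to act on this gene. RefSeq (GRCm38.p6) gives 6 start sites for *Sgk1*, and the window with both motifs that were searched is the one printed below. The capitals mark ACANNNTGT, the core of the inverted repeat read by steroid receptors, and TGGAAA, the core read by NFAT proteins including the tonicity factor NFAT5. The window lies on the plus strand at chr10:21993640-21993939 and runs from 250 bases before to 50 bases after the start.

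Sgk1: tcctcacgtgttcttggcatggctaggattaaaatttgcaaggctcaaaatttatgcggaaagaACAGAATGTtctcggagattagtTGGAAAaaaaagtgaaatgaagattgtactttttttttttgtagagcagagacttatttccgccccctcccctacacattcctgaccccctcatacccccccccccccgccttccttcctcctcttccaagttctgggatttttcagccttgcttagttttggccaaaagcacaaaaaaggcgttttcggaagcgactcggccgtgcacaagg

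In this window the match to ACANNNTGT, which reads ACAGAATGT, began at position -186 from the start, and the match to TGGAAA began at position -163. Both motifs were searched on both strands. They do not overlap here. ACANNNTGT was present in 6.85% and TGGAAA in 21.4% of all 32851 windows of the same length. Windows were given for 5 of the 8 genes, 12 in all, of which 2 held ACANNNTGT (both of *Sgk1*) and 3 held TGGAAA (2 of *Sgk1* and 1 of *Stk39*). The 3 windows of *Tsc22d3* held neither. A match describes letters in a window and not a bound site.

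*Sgk1* was measured at 107, 194 and 235 CPM in control replicates 1, 2 and 3. The NaCl libraries of the same mice held 178, 221 and 277 CPM. Every NaCl library was above the control library of its own mouse, but NaCl replicate 1 was below control replicates 2 and 3, so the groups overlapped. Without the block the log2 fold change was 0.33 ± 0.27 (SE; 95% interval -0.26 to 0.92; adjusted p = 0.662 in edgeR). With the mouse as a replicate block it was 0.38 ± 0.12 (95% interval 0.13 to 0.64; unadjusted p = 0.0049, adjusted p = 0.053 in edgeR), which is 1.30-fold with an interval from 1.09 to 1.55. The log2 ratio within mice was 0.73 in mouse 1, 0.19 in mouse 2 and 0.24 in mouse 3. The value thus lay near the threshold with the block, and some settings moved it across while others did not. Combined with median-ratio size factors the block gave 0.39 with an adjusted p of 0.043 in edgeR. With total counts only it gave 0.39 with 0.074, and thinned to the smallest total 0.44 with 0.065, both in edgeR. DESeq2 with the block gave 0.39 with an adjusted p of 0.080. With mouse 2 left out the block gave 0.48 with an adjusted p of 6.1e-05 in edgeR. It gave 0.46 with 0.049 without mouse 3 and 0.22 with 0.63 without mouse 1, also in edgeR. Each fit with a mouse left out rested on 2 mice only, so its p carries little weight. Without mouse 2 the log2 ratios within the mice kept were 0.73 and 0.24. Without the block, leaving out single libraries gave log2 fold changes from 0.07 without control replicate 1 and 0.16 without NaCl replicate 3 to 0.48 without NaCl replicate 1 and 0.59 without control replicate 3, none of them past the threshold.

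*Sgk3* (ENSMUSG00000025915, chromosome 1) encodes an SGK kinase carried to endosomes by its phosphoinositide-binding domain. Its control libraries held 80.3, 80.0 and 84.8 CPM and its NaCl libraries 80.9, 57.2 and 98.2 CPM. The NaCl values spread on both sides of the controls, with NaCl replicate 2 below and NaCl replicate 3 above all of them. Its log2 fold change of -0.06 ± 0.18 (SE) without the block had a 95% interval from -0.47 to 0.35 (adjusted p = 0.932 in edgeR). Leaving out NaCl replicate 2 turned it to 0.13. With the block and all libraries it was -0.09 ± 0.13 (95% interval -0.36 to 0.18; adjusted p = 0.767 in edgeR).

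*Nedd4l* (ENSMUSG00000024589, chromosome 18), the ubiquitin ligase that SGK kinases phosphorylate, was at 46.4, 33.5 and 33.7 CPM in control libraries, and at 47.5, 36.8 and 35.5 CPM in NaCl libraries. Mouse 1 was highest in both groups, and the libraries of mice 2 and 3 lay together below it. The log2 fold change with NaCl was 0.09 ± 0.18 without the block (SE; 95% interval -0.32 to 0.49; adjusted p = 0.892 in edgeR). With the block it was 0.08 ± 0.13 (95% interval -0.18 to 0.34; adjusted p = 0.778 in edgeR). In GENCODE M21, 0.725% of the 75-base windows of *Nedd4l* transcripts also occur in *A330084C13Rik*, a gene on the opposite strand, and since the libraries carry no strand such reads cannot be assigned by strand. No other of the 8 genes shared a window of this length with another gene.

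*Wnk1* (ENSMUSG00000045962, chromosome 6), the chloride-sensitive kinase at the head of the cascade, was the most deeply counted gene of the group. Control libraries held 705, 684 and 689 CPM, and NaCl libraries 635, 631 and 771 CPM. NaCl replicates 1 and 2 were below all controls and NaCl replicate 3 was above them. Without the block the log2 fold change was -0.03 ± 0.13 (SE), and the 95% interval from -0.32 to 0.26 corresponds to 0.80-fold to 1.20-fold (adjusted p = 0.957 in edgeR). With the block it was -0.04 ± 0.12 (95% interval -0.28 to 0.21; adjusted p = 0.906 in edgeR).

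*Oxsr1* (ENSMUSG00000036737, chromosome 9), one of the kinases that WNK1 activates, was at 58.2, 60.2 and 63.3 CPM in control libraries, and at 59.8, 53.7 and 63.0 CPM in NaCl libraries. The control range held all NaCl values but that of NaCl replicate 2. Without the block this gave a log2 fold change of -0.05 ± 0.13 (SE; 95% interval -0.33 to 0.24; adjusted p = 0.922 in edgeR), and the interval corresponds to 0.80-fold to 1.18-fold. With the block it was -0.05 ± 0.12 (95% interval -0.29 to 0.20; adjusted p = 0.88 in edgeR).

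*Stk39* (ENSMUSG00000027030, chromosome 2), the other WNK-activated kinase and the nearest relative of *Oxsr1*, was at the lowest level of the group. Its promoter window (GRCm38.p6, minus strand, chr2:68471932-68472231, printed in the direction of transcription) is shown because it is the only window outside *Sgk1* with a motif searched here. The capitals mark TGGAAA, which begins at position -227 from the start.

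Stk39: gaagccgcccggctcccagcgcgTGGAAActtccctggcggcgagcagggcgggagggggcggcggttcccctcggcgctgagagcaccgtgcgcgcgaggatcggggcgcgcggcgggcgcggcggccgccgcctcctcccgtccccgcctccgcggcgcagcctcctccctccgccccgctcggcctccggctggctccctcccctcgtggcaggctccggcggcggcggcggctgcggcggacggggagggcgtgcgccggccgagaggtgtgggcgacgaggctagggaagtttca

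The counts of *Stk39* were 18, 21 and 26 reads in control and 12, 8 and 2 reads in NaCl libraries. In CPM these were 2.05, 1.90 and 1.31 in control and 1.34, 0.725 and 0.479 in NaCl libraries. Each NaCl library was below the control library of its own mouse, and the groups overlapped because NaCl replicate 1 was just above control replicate 3. Without the block *Stk39* had a log2 fold change of -0.92 ± 0.43 (SE; 95% interval -1.88 to 0.03; adjusted p = 0.411 in edgeR). With the replicate block it was -1.05 ± 0.42 (95% interval -1.92 to -0.18; unadjusted p = 0.020, adjusted p = 0.129 in edgeR). The direction held in all 21 alternative settings, with log2 fold changes from -1.38 to -0.72. None passed the threshold, but DESeq2 with the replicate block (-1.09) gave no adjusted p and could not pass. With so few reads the interval reaches from 0.27-fold to 1.02-fold, and the lowest count came from the shallowest library.

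*Tsc22d2* (ENSMUSG00000027806, chromosome 3) encodes a long TSC22 domain protein. It was at 30.5, 28.4 and 33.3 CPM in control libraries, and at 30.6, 23.4 and 30.9 CPM in NaCl libraries, with NaCl replicate 2 below the others. Between the groups its log2 fold change was -0.13 ± 0.16 without the block (SE; 95% interval -0.49 to 0.23; adjusted p = 0.796 in edgeR). With the block it was -0.13 ± 0.13 (95% interval -0.40 to 0.15; adjusted p = 0.649 in edgeR).

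*Tsc22d3* (ENSMUSG00000031431, chromosome X), the glucocorticoid-induced leucine zipper gene, was at 46.7, 28.0 and 25.2 CPM in control libraries, and at 51.5, 25.7 and 18.9 CPM in NaCl libraries. NaCl replicate 1 was the highest and NaCl replicate 3 the lowest of all 6 libraries. With NaCl the log2 fold change was -0.03 ± 0.35 (SE; 95% interval -0.81 to 0.75; adjusted p = 0.988 in edgeR). With the block the interval narrowed to -0.39 to 0.18 around -0.11 (adjusted p = 0.727 in edgeR). The log2 ratio within mice was 0.14 in mouse 1, -0.13 in mouse 2 and -0.41 in mouse 3.

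The identifier ENSMUSG00000029723, on chromosome 5, is named *Tsc22d4* in GENCODE M21 but *Spacdr* in the table of the authors. Its reads are therefore reported by identifier, they were left out of the counts above, and which of the names they belong to was not tested. The control libraries held 78.7, 68.1 and 70.5 CPM and the NaCl libraries 76.1, 54.6 and 57.0 CPM. Each NaCl library was below the control library of its mouse, with overlapping groups, a log2 fold change of -0.21 ± 0.16 (SE) and an adjusted p of 0.636 in edgeR (0.293 with the replicate block). The remaining family member *Tsc22d1* averaged 73.2 ± 7.3 CPM in the controls and 64.7 ± 7.8 CPM with NaCl (mean ± SD, n = 3), with a log2 fold change of -0.18 ± 0.14 and an adjusted p of 0.662 in edgeR.

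**Figure D2:**
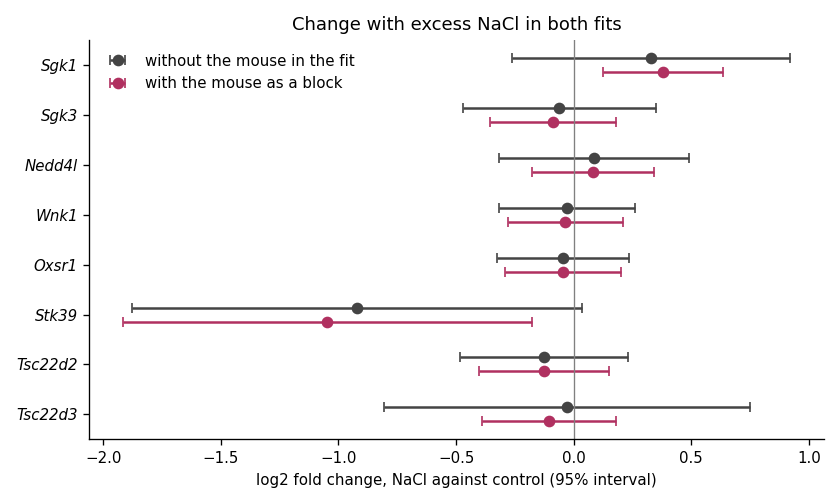
Log2 fold change of NaCl against control (horizontal axis) of the 8 genes with 95% intervals, without the mouse in the fit (grey) and with the mouse as a block (red). With the block the intervals of *Sgk1* (0.13 to 0.64) and *Stk39* (-1.92 to -0.18) left 0, and neither adjusted p was below 0.05.

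The mouse took the largest share of the spread in 6 of the 8 genes, the exceptions being *Wnk1*, where the rest took 51.7%, and *Stk39*. How often this held over all genes was not counted, so that number describes these genes only. Of the squared deviations of log2 CPM over the 6 libraries, the mouse took a median of 66.6% in the 8 genes, with a range from 33.7% to 95.2%, while its median over all genes tested was 44.8%. The share taken by NaCl had a median of 5.89% in the 8 genes, with a range from 1.65% to 60.5%, and of 19.2% over all genes tested. The mouse holds 2 and NaCl holds 1 of the 5 degrees of freedom, which correspond to mean shares of 40% and 20% where neither differs. The mouse share was 95.2% in *Nedd4l*, 93.5% in *Tsc22d3* and 72.4% in *Sgk1*. *Stk39* stood at the other end, with 60.5% taken by NaCl and 33.7% by the mouse.

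**Figure D3:**
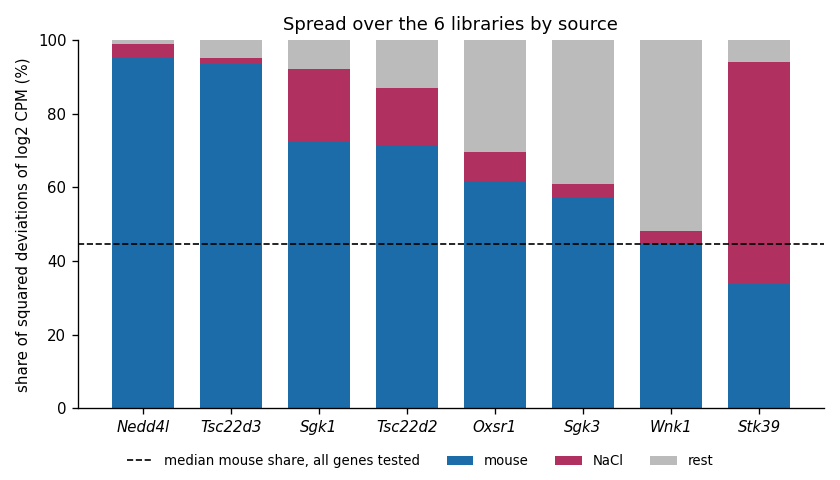
Share of the squared deviations of log2 CPM over the 6 libraries (vertical axis, %) that ran between mice (blue), between control and NaCl (red) and in the rest (grey), per gene. The mouse share exceeded the median of all genes (dashed line, 44.8%) in all genes but *Stk39*.

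A test of the mouse term, chosen after these values had been seen, called 2 of the 8 genes, *Sgk1* and *Tsc22d3*, against a background of 8.89% of all genes (edgeR quasi-likelihood F test beside the treatment term). In *Sgk1*, mouse 2 was 1.49-fold and mouse 3 was 1.84-fold above mouse 1, and the adjusted p of the mouse term was 9.9e-04 in edgeR. *Tsc22d3* ran the other way, with mouse 2 at 0.54-fold and mouse 3 at 0.46-fold of mouse 1 and an adjusted p of 5.7e-05 in edgeR. Both were called under each of 4 alternative settings. *Nedd4l* was 0.75-fold in mouse 2 and 0.74-fold in mouse 3 relative to mouse 1 with an adjusted p of 0.088 in edgeR, and the other 5 genes had adjusted p-values between 0.233 and 0.807. The animal and the day or dish of its culture cannot be told apart, since each number stands for 1 animal and no culture was repeated.

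Other values moved with the mouse. The summed level of the neutrophil markers was 247, 538 and 402 CPM in control and 268, 390 and 294 CPM in NaCl libraries of mice 1, 2 and 3. The sum was thus lowest in mouse 1 in both groups, and 4 of its 9 genes were called in the mouse term. In that list *Mpo* and *Elane* ran the other way and were highest in mouse 1 in both groups, and the mouse term called neither. *Mpo* was at 12.6, 11.7 and 9.13 CPM in control and at 11.2, 4.9 and 5.03 CPM in NaCl libraries. The summed level of the B cell markers was 9.67, 5.98 and 5.25 CPM in control and 10.4, 2.90 and 4.55 CPM in NaCl libraries, with mouse 1 highest. The part of these cells in the values of *Sgk1* and *Tsc22d3* was not tested. Mouse 3 gave both the deepest and the shallowest library, and with all libraries thinned to the smallest total the mouse term still called both genes.

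The genes with the most similar profile to *Sgk1*, by Pearson's r of log2 CPM over the 6 libraries among 8728 genes with a mean of at least 10 CPM, were *Yars2* (r = 0.994), *Net1* (r = 0.986) and *Cdk4* (r = 0.984). *Yars2*, a mitochondrial tyrosyl-tRNA synthetase, was at 8.53, 13.6 and 14.6 CPM in control libraries, and at 12.4, 14.4 and 16.3 CPM in NaCl libraries. The most similar to *Tsc22d3* were *Crebl2* (r = 0.995), *Rassf5* (r = 0.993) and *Hfe* (r = 0.989). *Hfe*, an iron-handling membrane protein, was at 73.2, 57.6 and 49.5 CPM in control libraries, and at 76.8, 49.4 and 42.4 CPM in NaCl libraries. Mouse 1 was the highest in both groups, which follows from the choice of *Hfe* by its likeness to *Tsc22d3*. These coefficients describe the same 6 libraries, which are paired by mouse and differ in depth, and carry no p.

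Levels were compared between genes as CPM per kb of exon, with the exons of all transcripts of a gene in GENCODE M21 merged. The order of the genes rests on this choice of length. In control libraries *Sgk1* (36.4 ± 13.3 CPM per kb, mean ± SD, n = 3) and *Wnk1* (30.4 ± 0.5) overlapped at the top. *Oxsr1* followed with 11.3 ± 0.5 CPM per kb. *Tsc22d3* (7.67 ± 2.7) and *Sgk3* (5.71 ± 0.19) overlapped, as did *Tsc22d2* (2.73 ± 0.22) and *Nedd4l* (2.14 ± 0.42). *Stk39* was lowest with 0.354 ± 0.079 CPM per kb, so that of the kinases activated by WNK1 the transcript of *Oxsr1* was the more abundant. Among their paralogs, *Wnk2* and *Wnk4* had between 0 and 8 counts per library and did not pass the threshold (log2 fold changes of 0.78 ± 0.69 and -0.52 ± 0.69, SE), and *Sgk2* and *Wnk3* had 0 counts in all 6 libraries and were not tested.

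**Figure D4:**
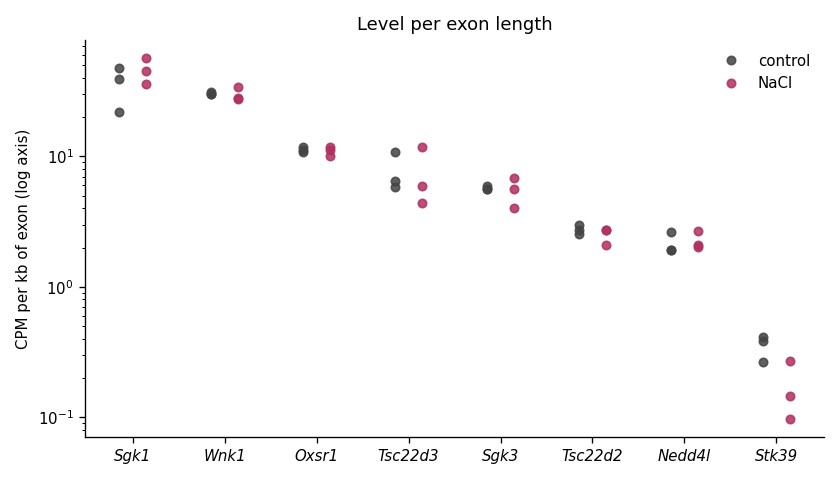
Level in CPM per kb of exon (vertical log axis) of the 8 genes in the 3 control (grey) and 3 NaCl (red) libraries, ordered by the control mean. *Sgk1* and *Wnk1* lay at the top, and *Stk39* lay lowest in every library.

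The wider pathways were described by 4 lists with 57 genes, of which 50 were tested. Without the block 0 of the 50 passed the threshold in edgeR or in DESeq2, 5 had an unadjusted p below 0.05 in edgeR (against 12.6% of all genes), and the median log2 fold change of the 50 was 0.04. With the replicate block edgeR called 2 of the 50, 1 in each direction, against 8.9% of all genes, and 15 had an unadjusted p below 0.05, against 22.1% of all genes. With the block and all libraries thinned to the smallest total 0 of the 50 were called.

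Among 16 activators, targets and partners of SGK kinases, 13 were tested and 1 fell with the block. This was *Ndrg1*, a protein whose phosphorylation is used as a readout of SGK activity, which was at 52.2, 28.6 and 23.4 CPM in control libraries, and at 45.4, 13.3 and 10.3 CPM in NaCl libraries. Every NaCl library was below the control library of its mouse, and mouse 1 was highest in both groups. The log2 fold change was -0.75 ± 0.17 (SE; adjusted p = 0.0033) with the block and -0.55 ± 0.49 (adjusted p = 0.695) without it, both in edgeR. Thinned to the smallest total, *Ndrg1* gave -0.66 with the block and an adjusted p of 0.063. The subunits *Scnn1b* and *Scnn1g* of the epithelial sodium channel had 0 counts.

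Among 18 partners and targets of the WNK cascade, 15 were tested and 1 rose with the block. *Slc12a4*, which encodes the potassium chloride cotransporter KCC1, was at 84.3, 92.2 and 103.5 CPM in control libraries, and at 99.1, 169.8 and 124.1 CPM in NaCl libraries. It was higher in the NaCl library of each mouse, and NaCl replicate 1 lay within the control range. The log2 fold change was 0.46 ± 0.13 (SE; adjusted p = 0.023) with the block and 0.49 ± 0.19 (adjusted p = 0.336) without it, both in edgeR. With the block *Slc12a4* was 0.34 (adjusted p = 0.217) when thinned to the smallest total and 0.26 (adjusted p = 0.122) when mouse 2 was left out.

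Of 14 corticosteroid receptors and target genes 13 were tested, and of 9 kinases and factors of hypertonic stress all 9 were tested, and none of either list passed with or without the block. *Nr3c1* and *Nfat5* are given for their roles, although the rule for naming did not select them. The glucocorticoid receptor gene *Nr3c1* averaged 102.9 ± 1.5 CPM in the controls and 103.8 ± 18.1 CPM with NaCl (mean ± SD, n = 3). *Nfat5*, the tonicity-responsive transcription factor, was at 118.4 ± 17.1 and 135.2 ± 19.4 CPM, with a log2 fold change of 0.19 ± 0.15 (SE) and an adjusted p of 0.668 in edgeR. The mouse term called 6 of the 50 pathway genes, against 8.89% of all genes. Named after their values were seen, these included *Ndrg1* (adjusted p = 3.1e-06), *Foxo3* (0.0015), *Map2k3* (0.015) and *Klhl2* (0.036) in the edgeR mouse term. The others were of the corticosteroid list, *Fkbp5*, a co-chaperone of steroid receptors (3.1e-05), and the transcription factor gene *Cebpd* (5.1e-04). No other tested gene of that list was called in the mouse term, *Per1*, *Klf9*, *Dusp1*, *Zbtb16* and *Errfi1* among them. *Fkbp5* was at 17.2, 36.1 and 43.4 CPM in control libraries, and at 23.8, 57.2 and 45.3 CPM in NaCl libraries, lowest in mouse 1, where *Tsc22d3* was highest. *Cebpd* was at 16.7, 9.33 and 11.7 CPM in control libraries, and at 24.5, 7.71 and 11.3 CPM in NaCl libraries, highest in mouse 1 like *Tsc22d3*.

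**Figure D5:**
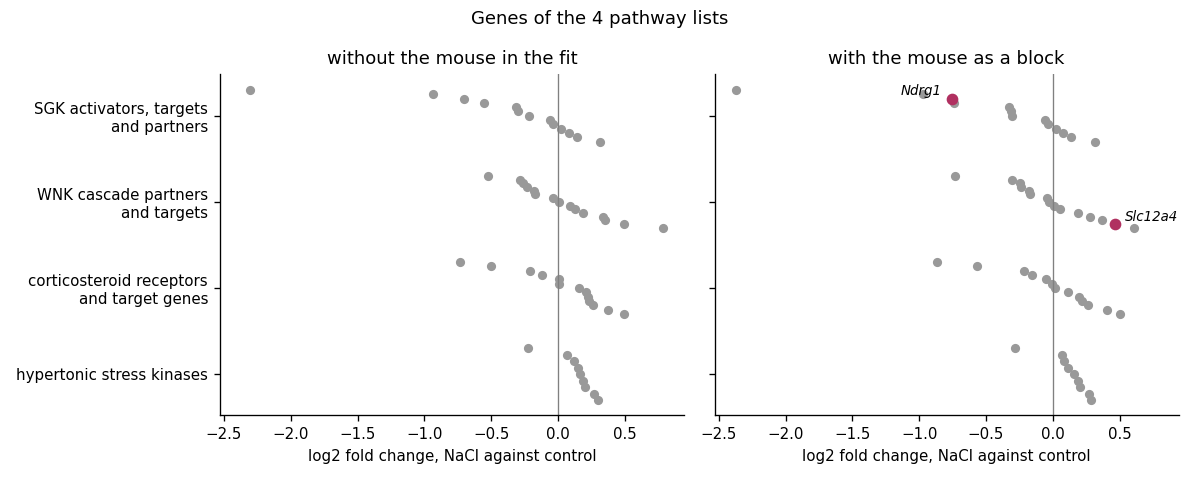
Log2 fold change of NaCl against control (horizontal axes) of the 50 tested genes of the 4 pathway lists, without the mouse in the fit (left) and with the mouse as a block (right), where red named points passed an adjusted p of 0.05. No gene passed without the block, and *Ndrg1* (-0.75) and *Slc12a4* (0.46) passed with it.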

How the data were processed

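The libraries were made from polyadenylated RNA, carry no strand and were read from 1 end for 75 bases. The authors trimmed the reads with fastp 0.20.0, aligned them with STAR 2.7.10b to mm10 with GENCODE as annotation, and deposited raw counts of reads per gene. They also deposited a normalized signal, these counts divided by DESeq2 (1.40.2) size factors (0.434 to 2.08), which served for symbols. The annotation release named belongs to another build, so gene positions are given by chromosome.

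Raw counts were tested with edgeR 4.0.16 (TMM, quasi-likelihood test, R 4.3.3) on genes whose counts summed to 10 or more, NaCl against control with no further term as in the methods of the study. Adjustment followed Benjamini and Hochberg, and an adjusted p below 0.05 was called. Intervals cover 95%. log2 CPM used a prior count of 2. The mouse number pairs the samples, since both libraries came from the same animal, and deviations from group means correlated across genes with 0.43, 0.15 and 0.22 for same-mouse pairs against -0.35 to 0.12 for the other pairs. DESeq2 1.42.0, limma-voom (limma 3.58.1), other scaling, other filters, thinning and leaving out libraries or mice were alternatives. The mouse-term test was added after the data were seen. Fits were tested on simulated data. Python 3.11.15 with pandas 2.3.3 and matplotlib 3.10.9 was also used.

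Members and lists were chosen with earlier results of these data known. All members were named, paralogs were named, list genes where past the threshold with or without the block, and the 3 genes most similar to *Sgk1* and *Tsc22d3*. With 3 libraries a group, an exact permutation test could not go below p = 0.1 and was not used. All p-values rest on cultures of 3 mice. Without the block they set the change against the spread between libraries of a group, taken as independent although paired by mouse. With the block they set it against the spread left within mice, and so does the test of the mouse term for differences between mice.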

Additional observations from a re-analysis of the deposited data

How the results depend on the processing

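Of 168 recomputed log2 fold changes of the 8 genes, 145 kept their direction and their side of the threshold, 3 moved past it and 20 changed sign. The 3 were those of *Sgk1* with the replicate block, given above, so that 1 gene was called higher with median-ratio size factors, with mouse 2 left out and with mouse 3 left out. The fits with a mouse left out rested on the remaining mice alone. No setting called a gene lower. Counted among the 145 was *Stk39* in DESeq2 with the replicate block, which had no adjusted p.

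All sign changes had an adjusted p of at least 0.625 in edgeR, and the largest was that of *Tsc22d3* to 0.30 without control replicate 1. Thinned to the smallest total, *Sgk3* was 0.023 (0.013 with the block), *Nedd4l* -0.12 (-0.13 with the block) and *Tsc22d3* 0.046 (0.011 with the block). With the block and 1 mouse left out, *Sgk3* was 0.12 without mouse 2, *Wnk1* 0.033 without mouse 1 and 0.014 without mouse 2, *Oxsr1* 0.025 without mouse 2 and *Tsc22d3* 0.02 without mouse 3. Leaving out single libraries gave ranges of 0.07 to 0.59 for *Sgk1*, -0.24 to 0.13 for *Sgk3*, -0.057 to 0.259 for *Nedd4l*, -0.13 to 0.027 for *Wnk1*, -0.096 to 0.023 for *Oxsr1*, -0.196 to 0.006 for *Tsc22d2* and -0.54 to 0.30 for *Tsc22d3*.

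Over all genes, 104 passed the threshold without the block. This count was 400 with DESeq2, 1416 with the replicate block, 806 with DESeq2 and the block, 1431 with the block and median-ratio size factors, 1182 with the block and total counts, 662 with a minimum total of 1, 39 thinned and 580 thinned with the block. It lay between 9 and 169 when single libraries were left out, and was 886, 1419 and 1300 with the block and mouse 1, 2 or 3 left out. Of the pathway genes 0 passed without the block. There were 2 with the replicate block in edgeR, 2 with it in DESeq2, 3 with median-ratio size factors, 2 with total counts, 0 thinned to the smallest total, and 3, 1 and 4 with mouse 1, 2 or 3 left out, all with the block. No gene of the 8 changed its call under the block itself. *Stk39* had between 2 and 26 counts per library. The causes were not tested.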
